A study of Drosophila melanogaster and Drosophila simulans with 21 samples.

Results

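The nuclear pore and nuclear import genes described here are 6 named genes: the nucleoporin genes Nup93-1, Nup154 and Nup98-96, the small GTPase gene Ran, and the importin genes msk and Fs(2)Ket. They were found by matching the platform annotation of each probe position to a current gene symbol. Each of the 6 had 1 probe position, and all 6 passed the minimum of 4 values in each of the 3 comparisons. They stand among 1384 named genes and 4753 genes and unnamed positions tested. The members were chosen by function and with their hybrid and species differences on these same arrays known, so these differences are given as a description, without p-values. By locus tag and chromosome arm, Nup93-1 is CG11092 on X, Nup154 is CG4579 on 2L, Nup98-96 is CG10198 on 3R, Ran is CG1404 on X, msk is CG7935 on 3L and Fs(2)Ket is CG2637 on 2L.

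RNA came from whole adult females of Drosophila melanogaster Canton S, of its sibling species Drosophila simulans Sim-1, and of F1 hybrid daughters of Canton S females and Sim-1 males. Stocks were reared at 25 C, and crosses were set up at 18 C. The females of both species were virgins, and all females were held for 5 to 6 days before freezing. Every strain was represented by 1 pooled RNA, so the arrays are technical repeats, and a difference between strains cannot be told apart from a difference between pools. Each pair of RNAs was hybridised on 6 spotted cDNA arrays, 3 in each channel orientation, and 3 more arrays carried 1 RNA in both channels.

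Nuclear pores are channels in the nuclear envelope built from many copies of a set of proteins called nucleoporins. Importins carry proteins through them, and Ran bound to GTP releases the cargo inside the nucleus. Growing oocytes and early fly embryos hold large stores of these proteins, and several of the genes are known from mutants with defects of oogenesis or of the early embryo. Nucleoporins also evolve fast between these sibling species, and the D. simulans copy of Nup96 is known as a hybrid incompatibility gene in crosses with D. melanogaster. The probes come from D. melanogaster, so a weaker match with D. simulans transcripts lowers a signal by itself. Probe match was not measured here.

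All values below are log2 ratios of 2 RNAs on 1 array, with the array's median position set to 0. Higher and lower are relative to that median. The labels do not name the numerator of the deposited ratio. Here channel 1 is taken as the numerator, as in earlier work on these data. In the other reading every lower value below is higher and every higher value lower, whereas sizes and counts stay. In this reading, 4 of 5 measured germline markers were lower in the hybrid than the parental mean, beside 42.3% of all genes and positions. The fifth, ovo, stood at -0.024. Below both parents were 3 of the 5, beside 36.2% of all genes and positions, and c(3)G was not lower than D. simulans. As background, hybrid daughters of this cross are known for sterility with reduced ovaries. Of 158 genes and positions that passed the threshold with a parental difference of at least 2-fold, 105 (66.5%) were lower in D. simulans in this reading. None of the 158 was a member. Over all parental differences past the threshold, 1118 were lower and 1105 higher in D. simulans, so without the 2-fold limit the split was near even. The earlier work chose the reading from measures of these 2 kinds, germline markers and parental differences, so they are no separate check of it. Fs(2)Ket was on the germline list of that work.

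The arrays differed in how closely they followed the others of their pair. Across genes and positions, the correlation of an array with the mean of the other 5 was lowest for the second D. simulans against D. melanogaster array, at 0.505, against 0.723 to 0.898 for the rest of that pair. Among arrays with hybrid RNA it ran from 0.856 to 0.967, lowest for the third array of hybrid against D. simulans. On that array 3 members, Nup154, Ran and msk, lay nearest to 0 of the 6 values, and the values without it are given beside theirs. The second array of hybrid against D. melanogaster was close to it, at 0.859. There Nup93-1 and Nup98-96 lay nearest to 0, and the fit without it gave -2.34 and -1.29 against D. melanogaster. Without the second D. simulans against D. melanogaster array, the parental differences of these 2 genes were 0.15 and 0.17.

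Nup93-1 encodes a scaffold nucleoporin of the inner ring of the pore, and in this reading it had the largest difference of the members. On the 6 arrays of hybrid against D. melanogaster its lowest, median and highest log2 values were -2.68, -2.23 and -1.35. Against D. simulans they were -2.74, -2.56 and -1.94. All hybrid values lay below every value of the parental arrays, which ran from -0.22 to 0.14. Such gaps, here and for the genes below, set ratios with different reference RNAs side by side. How many of all genes and positions show one was not counted. By the threshold, 36.2% of them lay below both parents. The linear model put the hybrid at -2.24 ± 0.11 (SE) against D. melanogaster, a level 4.71-fold lower, and at -2.33 ± 0.11 against D. simulans, 5.03-fold lower. The parents differed by 0.10 with a 95% interval of -0.13 to 0.32. Counted from the lowest hybrid level against the parental mean, it had rank 17 of the 1384 named genes.

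Nup154 encodes another inner ring nucleoporin, and mutants of it are known for defects of egg and sperm formation. The hybrid against D. melanogaster gave a lowest value of -1.99, a median of -1.83 and a highest value of -1.41. Against D. simulans the lowest and median values were -1.76 and -1.53, while the highest, on the third array, was -0.014. The D. simulans arrays against D. melanogaster ranged from -0.71 to -0.29, below 0 on 6 of 6. Apart from the third array of hybrid against D. simulans, all hybrid values lay below all parental ones. In the model the order was D. melanogaster, D. simulans, hybrid: D. simulans stood at -0.44 ± 0.12, and the hybrid at -1.72 ± 0.12 against D. melanogaster and -1.28 ± 0.12 against D. simulans. Without the third array the latter was -1.43.

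Nup98-96 encodes a precursor protein that is cleaved into Nup98, which carries glycine-rich FG repeats of the pore channel, and Nup96, of the outer ring. Which stretch of the transcript the probe covers is not given in the sources used here, so the value cannot be assigned to either product. The hybrid against D. melanogaster gave a lowest value of -1.45, a median of -1.19 and a highest value of -0.52. Against D. simulans 5 arrays had a value, from -1.77 to -1.25 with a median of -1.34. All hybrid values lay below the parental ones, of which 4 were above 0 and 2 below, from -0.42 to 0.29. The model gave -1.20 ± 0.098 against D. melanogaster (2.29-fold lower) and -1.30 ± 0.098 against D. simulans (2.45-fold lower). The parental difference was 0.10, with a 95% interval from -0.11 to 0.30. On these arrays the parents were not told apart for this gene, within that interval.

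**Figure D1:**
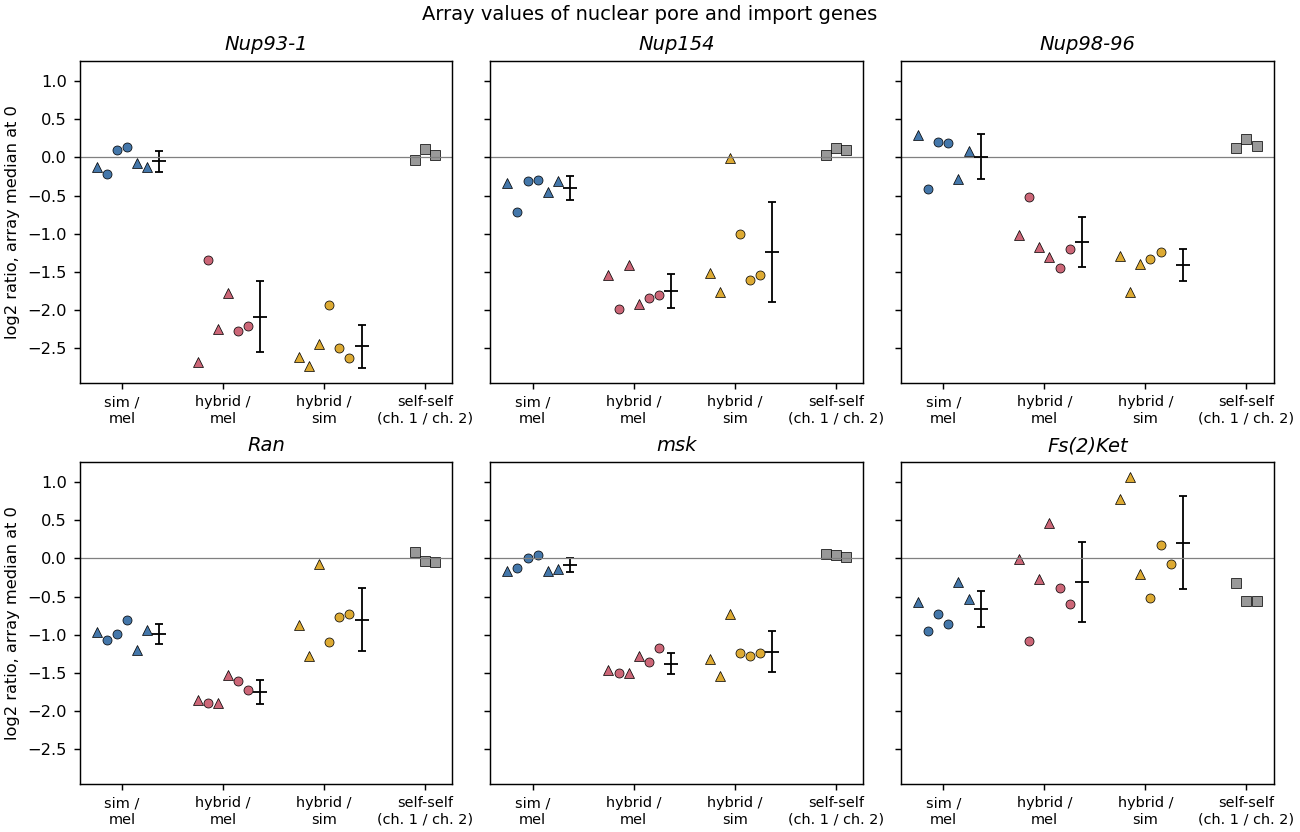
Each panel plots 1 gene, with the log2 ratio on the vertical axis (array median at 0) and the pairs of RNA on the horizontal axis (sim, D. simulans; mel, D. melanogaster). Circles are arrays with the first-named RNA in channel 1, triangles the swapped arrays, black bars the mean ± SD of 5 or 6 arrays, and grey squares the 3 self-self arrays. Both hybrid groups lie below 0 for every gene except Fs(2)Ket, whose points reach from -1.08 to 1.07, and its self-self arrays lie between -0.56 and -0.33.

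Ran encodes the GTPase whose GTP-bound form gives transport its direction, and which also acts in spindle assembly. It was the member with the largest species difference. D. simulans against D. melanogaster gave -1.19, -0.98 and -0.81 as the lowest, median and highest values, and the model put D. simulans at -0.98 ± 0.088, 1.97-fold lower. The hybrid was lower still. Its values against D. melanogaster were tight, from -1.90 to -1.52 with a median of -1.79. Against D. simulans they ran from -1.27 to -0.072 with a median of -0.82, and the value nearest 0 was again on the third array. The model gave -1.76 ± 0.088 against D. melanogaster (3.40-fold lower) and -0.79 ± 0.088 against D. simulans (1.72-fold lower), or -0.88 without that array. The 3 RNAs thus formed steps, with D. melanogaster highest and the hybrid lowest. When all arrays were scaled to a common spread, the hybrid and D. simulans were no longer apart by the threshold used for all genes, at -0.18 ± 0.16. That scaling widens the parental arrays and narrows those with hybrid RNA.

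The gene msk encodes Moleskin, the fly importin 7, which carries activated MAP kinase into the nucleus. It had the smallest errors of the 6 genes. The hybrid against D. melanogaster ranged from -1.50 to -1.18 with a median of -1.41. Against D. simulans it ranged from -1.54 to -0.73 with a median of -1.26. The parental values, -0.17 to 0.043, did not overlap with those of either hybrid group. The model gave -1.36 ± 0.066 against D. melanogaster (2.56-fold lower) and -1.24 ± 0.066 against D. simulans (2.37-fold lower), or -1.32 without the third array. The parents differed by -0.11, with a 95% interval of -0.25 to 0.025.

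Fs(2)Ket encodes importin beta, the carrier of the classical import pathway, and dominant alleles of it are known for female sterility. It departed from the other members. The hybrid against D. melanogaster gave values from -1.08 to 0.46 with a median of -0.33, below 0 on 5 of 6 arrays. Against D. simulans 3 arrays lay below 0 and 3 above, from -0.52 to 1.07 with a median of 0.057. All 3 groups overlapped. D. simulans against D. melanogaster was below 0 on 6 of 6 arrays, from -0.95 to -0.31. The model placed D. simulans at -0.61 ± 0.11 and the hybrid at -0.36 ± 0.11 against D. melanogaster and 0.25 ± 0.11 against D. simulans. Relative to the parental mean the hybrid stood at -0.055, with a 95% interval of -0.26 to 0.15.

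The hybrid position of Fs(2)Ket was the least settled value among the members. Its distance from D. simulans passed the threshold for all genes in 5 of 18 fits that each left out 1 array. The arrays with title numbers 1 to 8 gave -0.64 ± 0.17 against D. melanogaster, and those with title numbers 14 to 18 gave -0.063 ± 0.079. Against the parental mean these sets gave -0.26 and 0.19, so the sign turned. Orientations were not balanced within them, with hybrid RNA mostly in channel 2 in the first set and mostly in channel 1 in the second. Each fit held a channel term, and the part of orientation in the turn was not tested. For the other 5 genes the same 2 sets gave -1.14 to -2.15 and -1.18 to -2.22 against the parental mean.

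The channel term of the model bears on Fs(2)Ket and was not used to choose the members. Its signal was lower in channel 1 than in channel 2 by a log2 value of -0.30 ± 0.079 (limma, adjusted p = 0.0235, over all 4753 genes and positions). Of the 6 members only Fs(2)Ket passed, while 9.24% of all tested genes and positions did, 3.32% with the lower signal in channel 1. The self-self arrays were not part of that fit and went the same way on 3 of 3. They stood at -0.56 with D. melanogaster RNA, -0.56 with D. simulans RNA and -0.33 with hybrid RNA. On those arrays 1.54% to 1.94% of tested genes and positions had a value as low or lower. The self-self values of the other 5 members lay between -0.043 and 0.24. With hybrid RNA in channel 1 the array mean of Fs(2)Ket was -0.69 against D. melanogaster and -0.14 against D. simulans, and with hybrid RNA in channel 2 it was 0.061 and 0.55. Both orientations hold 3 arrays of each pair, so the channel difference cancels in the mean.

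**Figure D2:**
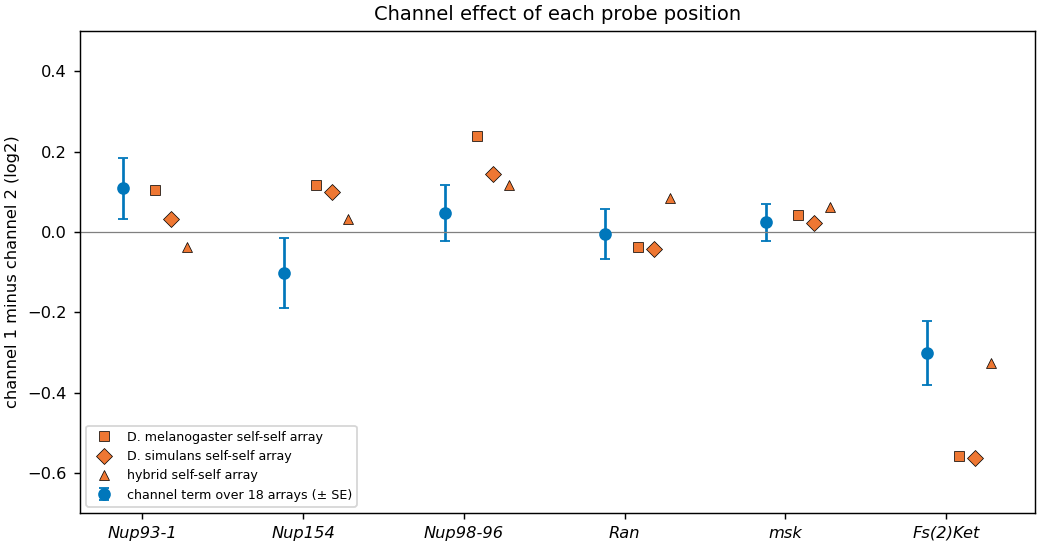
The vertical axis is the log2 difference of channel 1 minus channel 2 for each of the 6 genes on the horizontal axis. Blue points are the channel term of the model over 18 arrays with its SE, and orange symbols are the 3 self-self arrays. Fs(2)Ket alone has all 4 values at -0.30 or lower.

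Direct and indirect estimates were compared through the loop of the 3 pairs, which again did not enter the choice of the genes. The hybrid against D. melanogaster, less its 2 steps through D. simulans, should be 0. The members' values ran from -0.11 to 0.28 apart from Nup93-1, at 0.44 ± 0.21 (unadjusted p = 0.0507, adjusted p = 0.9999, limma). No gene or position passed: 0 of 4753 had an adjusted p under 0.05, and 88 had an unadjusted p under 0.05. The test had limited power, since the SE of the members' loop values was 0.14 to 0.27.

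Against the parental mean, the hybrid values of the 6 genes ordered from Nup93-1 at -2.28 ± 0.093, through Nup154 at -1.50 ± 0.11, msk at -1.30 ± 0.057, Ran at -1.28 ± 0.076 and Nup98-96 at -1.25 ± 0.085, to Fs(2)Ket at -0.055 ± 0.097. The 95% intervals of Nup154, msk, Ran and Nup98-96 overlapped, so their order is not settled. Those of Nup93-1 and Fs(2)Ket overlapped with no other. The median of the 6 was -1.29, beside 0.023 over all genes and positions tested. Over all, the median size of change in either direction was 0.64. In these whole females, fewer cells of a type and less RNA per cell cannot be told apart.

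By the model's threshold, 6 of 6 members were lower in the hybrid than in D. melanogaster, while 41.8% of all genes and positions were lower and 42.0% higher. Against D. simulans 5 of 6 were lower, with 40.8% over all, and Fs(2)Ket was higher, with 41.5% over all. Against the parental mean 5 of 6 were lower, with 42.3% over all. The hybrid lay below both parents for 5 of 6, with 36.2% over all, and between them for Fs(2)Ket, with 2.21% over all. D. simulans was lower than D. melanogaster for Ran, Fs(2)Ket and Nup154, 3 of 6, with 23.5% over all, and for none was it higher, with 23.2% over all. Both hybrid comparisons share the hybrid RNA, and nothing is read from these counts, since the genes were picked with them known.

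The other nucleoporins with values give a set that was not picked for its hybrid level, although it was listed with results for some genes known. Of 28 listed, 5 were tested. All 5 were lower in the hybrid than the parental mean, beside 42.3% of all genes and positions. Their median was -0.56, beside 0.023 over all. The median size of change over all, in either direction, was 0.64, and the changes of Nup107, Nup44A and Sec13 were smaller. Nup35, of the inner ring like Nup93-1, fell most, by 1.31 ± 0.085 on the log2 scale (adjusted p = 1.33e-11). Nup153 of the nuclear basket stood at -0.71 ± 0.065 (adjusted p = 2.64e-09) and Nup107 of the outer ring at -0.56 ± 0.11 (adjusted p = 5.45e-05). The changes of Nup44A, the fly Seh1, at -0.19 ± 0.064 (adjusted p = 0.00862) and of Sec13 at -0.16 ± 0.052 (adjusted p = 0.00991) were small. Sec13 is also a coat protein of secretory vesicles, and Seh1 also works at lysosomes. Against each parent separately, Nup35, Nup107 and Nup153 were below both, 3 of 5, beside 36.2% over all. With 5 genes this last count is near the background. These adjusted p-values are from limma over all genes and positions.

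Size varied widely within the pore. From the largest to the smallest, the mean hybrid change spanned 4.87-fold for Nup93-1 to 1.11-fold for Sec13. With arrays scaled to a common spread, or with title numbers 1 to 8 alone, 3 of the 5 other nucleoporins remained past the threshold, and with title numbers 14 to 18 alone 4 did. All 5 kept a negative value in the former fits and 4 in the latter. Nup54 had a position but no value on any array with 2 RNAs.

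Of 27 other transport receptors and Ran cycle genes listed, 5 were tested, and 3 were lower in the hybrid than the parental mean, beside 42.3% over all. Tnpo, which encodes transportin, the carrier of many RNA-binding proteins, fell by 1.18 ± 0.072 on the log2 scale (adjusted p = 5.29e-12). RanBP3, a cofactor of nuclear export, stood at -0.38 ± 0.057 (adjusted p = 3.50e-06). Karybeta3, the fly importin 5, stood at -0.33 ± 0.044 (adjusted p = 9.83e-07). The same 3 lay below both parents, beside 36.2% over all, so that with 5 genes these counts are near the background. Tnpo-SR, a carrier of splicing factors, at 0.060 ± 0.072 (adjusted p = 0.441), and RanBPM, a Ran-binding scaffold, at -0.053 ± 0.041 (adjusted p = 0.240), did not pass. The list median was -0.33, beside 0.023 over all, where the median size in either direction was 0.64. Positions of Cse1, Ranbp21, Rcc1 and ebo held no value, so neither the Ran exchange factor nor the importin alpha exporter was measured.

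Between the parents these lists moved less. Among the other nucleoporins, Nup153 was lower in D. simulans at -0.25 (adjusted p = 0.0103), and Sec13 was higher at 0.18 (adjusted p = 0.0176). Tnpo, Tnpo-SR and Karybeta3 were higher at 0.22 to 0.23, with adjusted p-values from 0.00185 to 0.0325. The other 5 genes of both lists did not pass. All 10 values lay between -0.25 and 0.23, beside -0.98 for Ran and -0.61 for Fs(2)Ket.

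**Figure D3:**
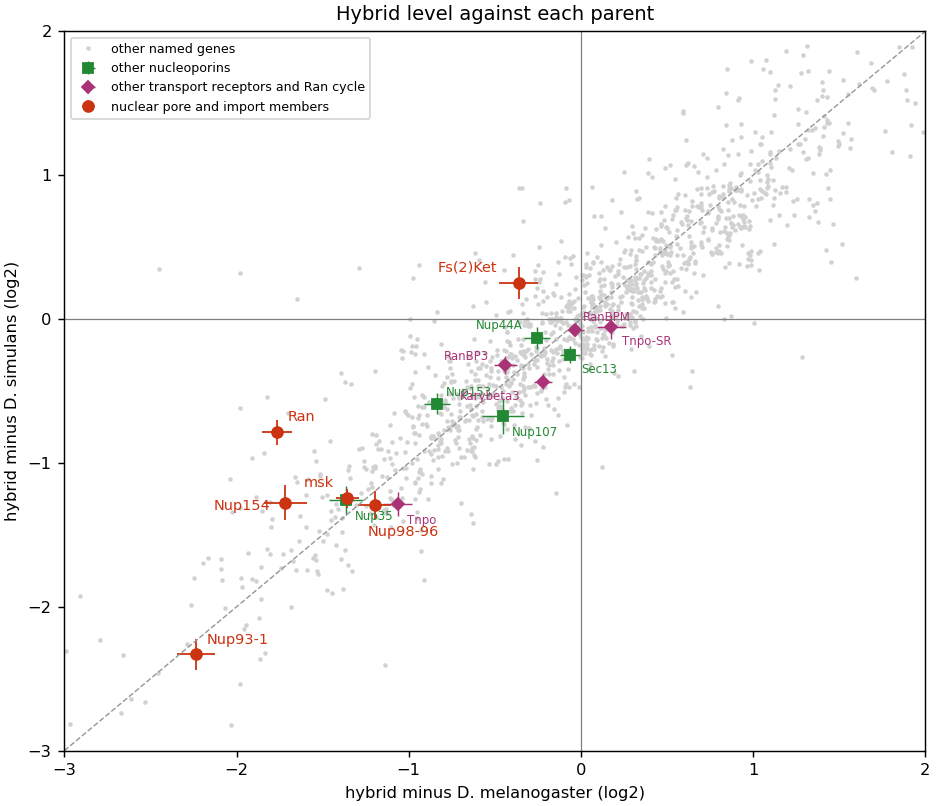
The horizontal axis is the log2 difference of the hybrid from D. melanogaster and the vertical axis that from D. simulans, each point 1 gene with its SE. Grey points are the other named genes, 24 of which lie outside the axes, and the dashed line marks equal distance from both parents. Nup93-1, Nup154, Nup98-96, Ran and msk are in the lower left, with Nup35 and Tnpo next to msk and Nup98-96, while Fs(2)Ket is left of 0 and above it.

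Of the nuclear lamina and envelope genes, 3 of 10 were tested, and they went different ways. The KASH-domain gene klar, which ties nuclei to microtubules, fell by 0.70 ± 0.051 on the log2 scale against the parental mean (adjusted p = 7.02e-11). Msp300, the muscle-rich nesprin that ties nuclei to actin, rose by 0.97 ± 0.11 (adjusted p = 7.45e-08). LBR, the lamin B receptor, stood at -0.034 ± 0.058 (adjusted p = 0.590).

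Markers of tissues moved with the hybrid as well. Of 24 listed germline markers 5 were tested, and 4 were lower than the parental mean: BigH1 at -4.49, zuc at -1.74, mei-P26 at -0.76 and c(3)G at -0.75, with adjusted p-values of at most 0.000211. The fifth, ovo, stood at -0.024 (adjusted p = 0.764). Against D. simulans alone c(3)G was not lower, at 0.14 (limma, adjusted p = 0.493). Below both parents were 3 of 5 germline markers, beside 36.2% over all, which with 5 genes is near the background. All 6 tested of 14 fat body markers were higher, from 0.59 for bmm to 2.75 for apolpp, as were all 4 tested of 11 muscle markers, from 0.98 for up to 1.34 for Prm, with adjusted p-values of at most 1.17e-05. Over all genes and positions 43.0% were higher and 42.3% lower. The lower values of the 5 members were seen in the same RNA as these marker values. The 5 germline markers spread widely, from -4.49 to -0.024, and those members, at -2.28 to -1.25, lay within that range. So did Fs(2)Ket, at -0.055, and all 5 other nucleoporins, from -1.31 to -0.16, so the range does not set those members apart. The part of tissue makeup in the members' values was not tested. Between the parents, c(3)G at -1.79 (adjusted p = 5.62e-07) and mei-P26 at -0.42 (adjusted p = 0.000243) were lower in D. simulans, as were Ran, Fs(2)Ket and Nup154, and the other 3 germline markers did not pass.

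**Figure D4:**
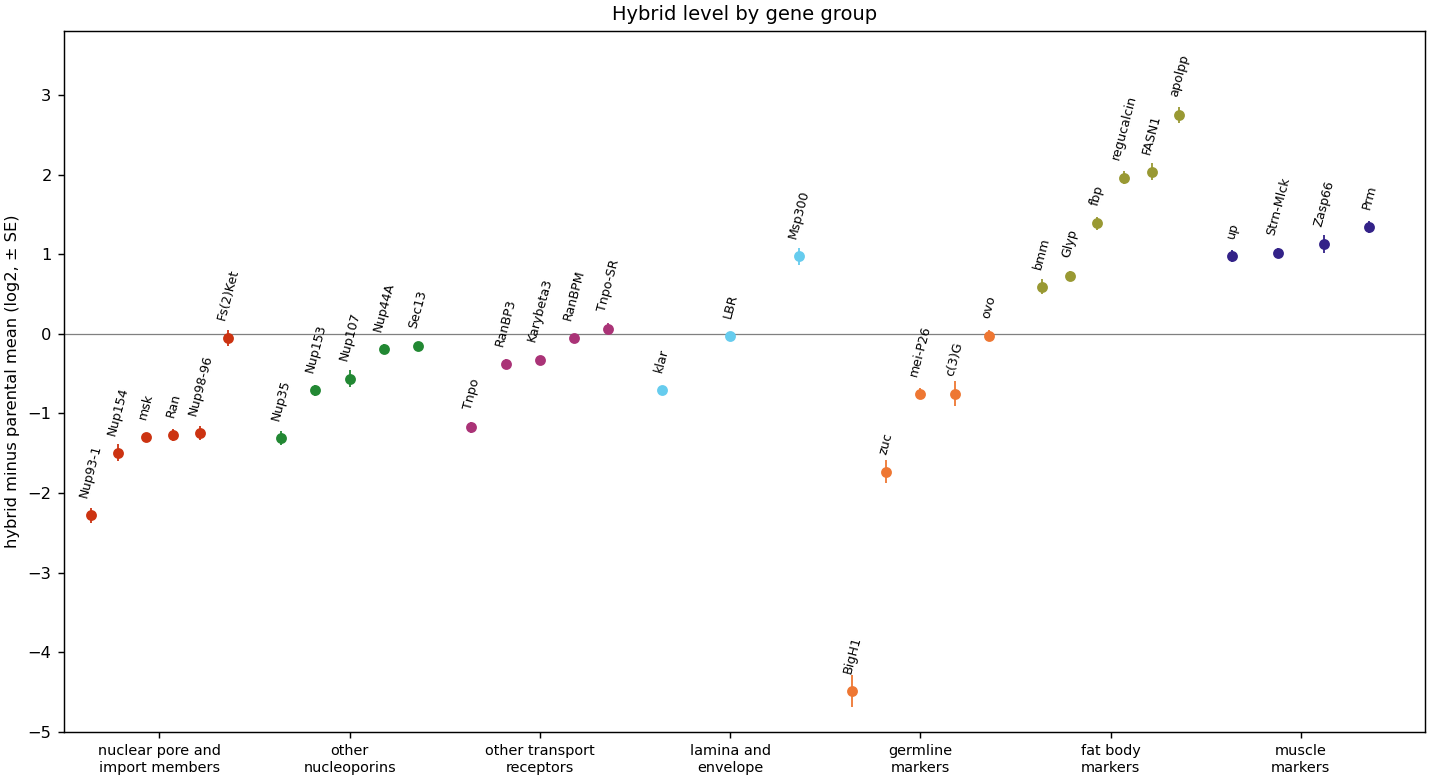
The vertical axis is the hybrid level minus the parental mean (log2, ± SE), and the genes are grouped along the horizontal axis by list. The nuclear pore and import members other than Fs(2)Ket lie from -2.28 to -1.25, the other nucleoporins from -1.31 to -0.16, and the fat body and muscle markers above 0.

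The named genes with the most similar array values were found by the root mean square difference over the arrays with 2 RNAs. For msk the closest was CG8611, at 0.13 log2 units over 18 arrays, then CG1620 and endos at 0.23 each. For Ran it was Tbca at 0.24, which had the same steps, at -0.94 for D. simulans and -1.91 for the hybrid against D. melanogaster, followed by CG4332 at 0.33 and gkt at 0.35. For Nup98-96 the closest were SKIP at 0.23, Ankle2 at 0.24 and GlnRS at 0.25. Nup154 was closest to Bap170, at 0.31, lost, at 0.36, and Ctf4, at 0.39. Nup93-1 was closest to CG18870, at 0.33 over 16 arrays, RecQ4, at 0.34, and CG7744, at 0.36. For Fs(2)Ket the closest were CG5181 at 0.27, Scamp at 0.35 and CG14408 at 0.38. The median over all named genes was 0.87 for Fs(2)Ket and 1.10 to 1.92 for the others. Within the members, Nup98-96 and msk were closest at 0.36, followed by Nup154 and msk at 0.40, and the widest gap was 2.00 between Nup93-1 and Fs(2)Ket.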

How the data were processed

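The authors deposited 1 linear ratio of the 2 channels per probe position and array. The sources used here give no background correction, normalization, spot filter or numerator, and signal over background is unknown. Precision here is that of repeat arrays from 1 RNA pool per strain, not of repeat pools. Ratios were put on the log2 scale and each array's median was subtracted, because 8 arrays lay over 0.1 from 0. All 8 held hybrid RNA and leaned to a lower hybrid level in this reading, a shift that the subtraction removes. Without it, the median hybrid value over all genes and positions was -0.083 against D. melanogaster and -0.10 against D. simulans. Swapped arrays of a pair correlated from -0.93 to -0.48, so the deposited ratio follows the channels. Of 6101 positions, 1943 had 1 gene symbol, which was updated through a gene table of Release 6 plus ISO1 MT. Positions of a gene were averaged. All 18 arrays with 2 RNAs entered 1 model in limma 3.58.1 (R 4.3.3) with terms for D. simulans RNA, hybrid RNA and channel. All p-values are two-sided, adjusted after Benjamini-Hochberg over 4753 genes and positions, with a threshold of 0.05. They measure the spread between arrays only. limma approximates the SE of a contrast where an array lacks a value, as for Nup98-96. The model was tested on simulated data. The members and lists were chosen with earlier results of these data known. Named are the members, every measured gene of the lists, and the 3 nearest genes of each member by root mean square difference over at least 15 arrays. Probe and protein sequences were not used here. Replicate numbers follow the order of deposition.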

Additional observations from a re-analysis of the deposited data

Results flagged for a closer look

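In 5 of 102 groups of array values checked, 1 array lay apart from the others by Dixon's criterion, which chance gives in about 1 of 20 groups. Among the members, Nup93-1 stood at -1.94 on the fourth array of hybrid against D. simulans, with the other 5 from -2.74 to -2.44. The gene msk stood at -0.73 on the third array of that pair, with the others from -1.54 to -1.24. On the fourth array of hybrid against D. melanogaster, mei-P26 stood at -0.43 (others -1.06 to -0.91) and BigH1 at -2.36 (others -5.33 to -4.62). The fat body gene bmm stood at -0.52 on the second array of D. simulans against D. melanogaster, with the others from 0.018 to 0.30.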

How the results depend on the processing

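The hybrid contrasts of Nup93-1, Nup154, Nup98-96, Ran and msk kept their sign and side of the threshold in 411 of 412 values over 28 alternatives. These values are not independent checks. Each member has 1 position, so keeping positions apart repeats its estimates, and some other alternatives leave most of them unchanged. The contrast with the parental mean is the average of the other 2, and the members were picked with these contrasts known. The exception among the 412 values was Ran against D. simulans, at -0.18 with arrays scaled to a common spread. Fs(2)Ket against D. simulans lost the threshold with deposited medians (0.13), no channel term (0.25), title number as a random block (0.21), title numbers 1 to 8 alone (0.12) and direct arrays only (0.21), and ranged from 0.18 to 0.35 with single arrays left out. Against D. melanogaster it lost it with title numbers 14 to 18 alone (-0.063) and direct arrays only (-0.31). Against the parental mean it turned sign with title numbers 14 to 18 alone (0.19) and array weights (0.025), and ranged from -0.11 to 0.022 with single arrays left out, above 0 without the third array of hybrid against D. simulans. Between the parents, Nup154 lost the threshold with title numbers 1 to 8 alone (-0.52), msk gained it with scaled arrays (-0.14), Nup98-96 with array weights (0.12), and Nup93-1 turned sign on direct arrays only (-0.052). Array weights raised the number of genes and positions that differed between the parents from 2223 to 3445. The other nucleoporins lower than the parental mean numbered 3 with scaled arrays and 3 with title numbers 1 to 8 alone, a count added after the data were seen. With deposited medians the median of all genes and positions was -0.10 against D. simulans instead of 0.023. The causes were not tested. No paired analysis was possible because replicate numbers follow the order of deposition. Arrays that share a title number were blocked instead, with a consensus correlation of 0.159, and among the members that block changed only the call of Fs(2)Ket given above.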
